A study of Caenorhabditis elegans with 12 samples.

Results

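The response to tunicamycin was measured in Caenorhabditis elegans larvae of the first stage (L1) carrying the tm3603 allele of manf-1, by comparing 3 arrays of tunicamycin-treated mutants with 3 arrays of vehicle-treated mutants. These 6 arrays are all the mutant arrays among the 12 of the study, and all 22548 probe sets other than the Affymetrix controls, of 22625 in the deposited table, were considered. The other 6 arrays hold wild-type N2 larvae, 3 with vehicle and 3 with tunicamycin, and serve below to show where the mutant response differs. Eggs of both strains were released with hypochlorite and hatched on plates without bacteria, and the larvae were washed off 24 h after plating. They were then rotated for 5 h in M9 buffer with the solvent DMSO (vehicle) or with tunicamycin dissolved in DMSO, so all 4 groups were unfed, and RNA came from whole bodies. The labels give a tunicamycin dose of 5, once in ug per mL (sample characteristics) and once in ug per uL (treatment protocol), and which unit applies is not settled. The array annotation gives manf-1 no probe set of its own, and the mutated gene's level was not analysed here, so the genotype labels have no check from it.

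Tunicamycin blocks the first step of N-linked glycosylation, so that glycoproteins entering the endoplasmic reticulum (ER) misfold. Cells answer with the unfolded protein response, in which the sensors IRE-1, PEK-1 and ATF-6 adjust transcription and translation, and IRE-1 splices the mRNA of the transcription factor XBP-1. The worm protein MANF-1 corresponds to vertebrate MANF and CDNF, secreted proteins that also reside in the ER and are known in vertebrates as neurotrophic factors and as ER stress-inducible proteins. A probe set signal reports the amount of transcript and not its splicing, translation or protein level.

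Values are log2 signals, on which 1 unit is a doubling, given with SD over 3 arrays or, for changes, with limma's SE. A gene was called when its Benjamini-Hochberg adjusted p, over the 14709 probe sets tested, was under 0.05. The labels do not say whether replicates were grown as separate cultures. The p-values therefore set each difference against the spread of these arrays, which may not be that of separate cultures. Array medians lay between 3.956 and 4.052, and Spearman correlations between arrays of 1 mutant group lay between 0.880 and 0.927. The arrays numbered 2 stood apart: the mean 3′ minus 5′ difference over 8 pairs of control probe sets was 0.262 to 0.294 on the 2 mutant arrays of that number and 0.478 to 0.755 on the other 4 mutant arrays, and 0.220 and 0.283 on the wild-type arrays of that number. Results that rest on arrays numbered 2 are therefore also given without the 4 of them, 1 in each group of the study. Of the background-like control probe sets, 95% lay under 3.34, and a mean signal under that value is treated as a bound. The larvae had high signals of snb-1, a synaptic vesicle gene (10.1 with vehicle), and unc-54, the major body wall muscle myosin (11.3), while the adult yolk protein genes vit-1, vit-4 and vit-5 had mean signals under the background limit with both treatments. A further yolk gene, vit-2, was at 2.38 with vehicle and 3.94 with tunicamycin, and vit-6 was at 4.01 and 4.06. In RNA from whole larvae, fewer cells of a type and less RNA per cell cannot be told apart.

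Tunicamycin raised genes of ER folding, degradation, entry and export in the mutants and lowered, among others, an intestinal filament gene, lysosomal proteases and collagens. Of 10844 genes, each represented by 1 probe set, 75 (0.692%) rose and 48 (0.443%) fell with tunicamycin in the mutants. At the level of probe sets 158 were called (1.07%), 97 higher (0.659%) and 61 lower (0.415%), and 1307 (8.89%) had an unadjusted p under 0.05. The rises ranged from 1.32 to 5.82 with a median of 2.21, and 47 of them were at least 4-fold and 15 at least 8-fold. The falls ranged from -0.88 to -3.04, with a median change of -1.91, and 21 were at least 4-fold and 1 at least 8-fold, with genes under the background limit in 1 treatment taken at their bound. In all 123 called genes the 3 treated arrays lay wholly above or below the 3 vehicle arrays, which was true of 7.68% of all genes upward and 9.15% downward. The calls were made on these same arrays and favour such separation, so it is no independent support for them. Among the called genes 57 belong to at least 1 of the 46 gene lists used here, 41 of the risen and 16 of the fallen. Without the 4 arrays numbered 2 there were 42 rises and 17 falls. Of the 123 genes 53 then kept their call (42 higher, 11 lower) and all 123 kept their sign. Called higher were then 5 of 10 ER chaperones, 5 of 8 disulfide isomerases and oxidases and 1 of 10 lectin chaperones and related genes. The counts were 0 of 18 for ER-associated degradation, 1 of 15 for entry and 2 of 19 for COPII export. Called lower were 1 of 33 lysosomal protease and lipase genes and 1 of 128 cuticle collagens.

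**Figure D1:**
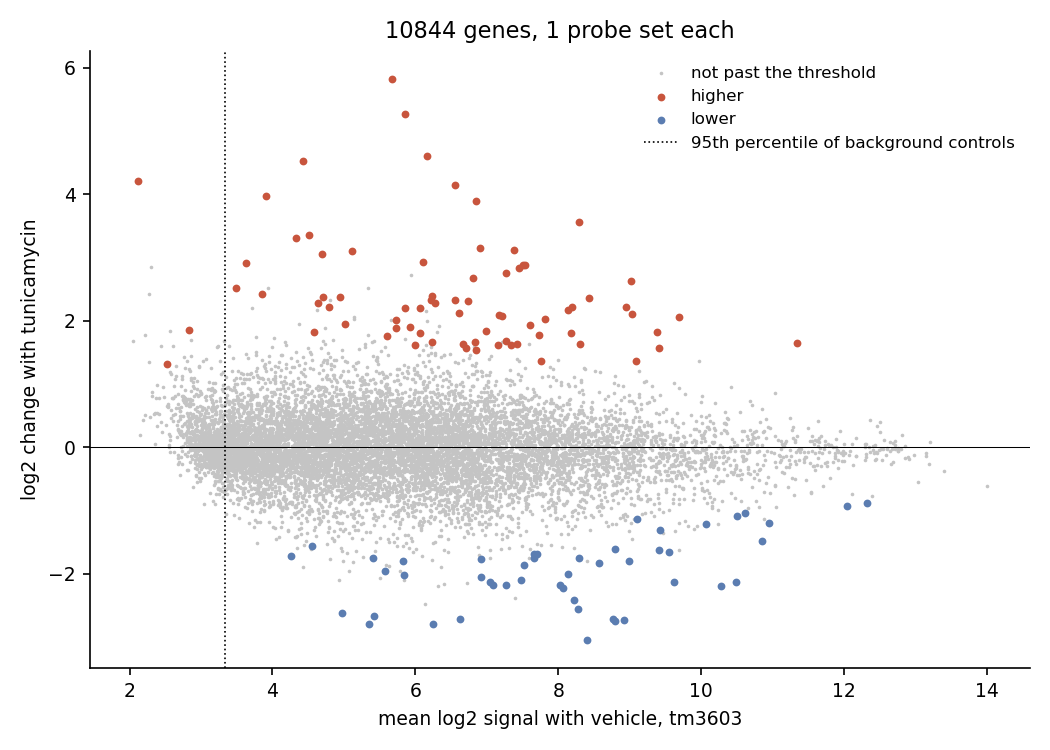
Log2 change with tunicamycin in tm3603 larvae (vertical axis) against the mean log2 signal with vehicle (horizontal axis) for 10844 genes, with genes past the threshold in colour (75 higher, 48 lower) and the 95th percentile of the background controls as a dotted line. The rises reach 5.82 while the falls stop at -3.04, and 3 of the risen genes lie left of the dotted line, where the vehicle signal is only a bound.

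The ER chaperones of the Hsp70, Hsp90 and DnaJ families rose: 6 of 10 were called, none lower, and all 10 changes were above 0, as were 48.1% of all genes. Their median change was 2.16, against -0.02 over all genes. The signal of hsp-4, a homologue of the ER Hsp70 chaperone BiP, was 8.45, 8.25 and 8.16 with vehicle and 11.97, 11.73 and 11.88 with tunicamycin. The groups lay far apart, with no array of either treatment near the other, and the rise was 3.57 (SE 0.30, adjusted p = 3.34e-05), or 11.9-fold. The signal of hsp-3, the other BiP homologue, was 9.64, 9.56 and 9.87 with vehicle and 11.82, 11.55 and 11.88 with tunicamycin. Its groups were also fully separate, and it rose by 2.06 (SE 0.19, adjusted p = 5.1e-05). The signal of enpl-1, the ER Hsp90 chaperone, was 8.41, 7.90 and 8.25 with vehicle and 10.56, 9.91 and 10.73 with tunicamycin. All treated arrays exceeded all vehicle arrays here too, although array 2 was the lowest of each group, and the rise was 2.21 (SE 0.34, adjusted p = 0.00393). A second enpl-1 probe set had a change of 1.48 with an adjusted p of 0.069. The Hsp70-family gene T14G8.3 rose by 2.11 (SE 0.30, adjusted p = 0.00239), and the DnaJ co-chaperone dnj-28 by 2.38 (SE 0.42, adjusted p = 0.0129). The gene dnj-7, a DnaJ co-chaperone named here after its value was seen, rose by 2.21 (adjusted p = 0.0219). The largest change in the list that was not called was that of dnj-27, a homologue of the ER reductase ERdj5, at 2.72 (adjusted p = 0.0596). The call of dnj-28 was lost under at least 1 alternative, with an adjusted p of up to 0.0837, and the count was 5 of 10 without the arrays numbered 2.

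Disulfide isomerases, which form and rearrange the disulfide bonds of proteins entering the ER, also rose: 5 of 8 genes were called, none lower, with a median change of 2.23. The signal of pdi-2, which also serves as the beta subunit of collagen prolyl 4-hydroxylase, was 9.24, 8.57 and 9.24 with vehicle and 11.70, 11.45 and 11.78 with tunicamycin. The treated arrays lay close together and well above the vehicle arrays, and the rise was 2.63 (SE 0.27, adjusted p = 0.000152). A second pdi-2 probe set had a smaller change of 1.16 that was not called (adjusted p = 0.0923). The signal of pdi-6 was 6.97, 5.86 and 7.89 with vehicle and 10.37, 9.51 and 10.27 with tunicamycin. Its vehicle arrays were widely spread, with array 2 lowest, yet none reached the treated ones, and the rise was 3.15 (SE 0.50, adjusted p = 0.0055). Its second probe set rose by 2.82 (adjusted p = 0.000202). The gene pdi-1 rose by 2.89 (SE 0.37, adjusted p = 0.000848), C14B9.2 by 2.84 (SE 0.27, adjusted p = 8.12e-05) and pdi-3 by 1.82 (SE 0.38, adjusted p = 0.0315). The call of pdi-3 was lost under at least 1 alternative (adjusted p up to 0.143). The ER oxidase ero-1, which recharges these enzymes, had a change of 1.28 (adjusted p = 0.292), and erp-44.1 and ZK973.11 had 0.32 and 0.43; the 3 are named as the list's remaining members.

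Among the lectin chaperones, glucosidases and ER prolyl isomerases, which act on glycoproteins and on proline bonds, 2 of 10 genes rose and none fell, with a median change of 0.79 and all 10 values above 0. The signal of crt-1, the calcium-binding lectin chaperone calreticulin, was 11.67, 10.91 and 11.45 with vehicle and 13.32, 12.60 and 13.04 with tunicamycin. In each treatment array 2 was the lowest, and the groups did not overlap; the rise was 1.64 (SE 0.24, adjusted p = 0.00247). The glucosyltransferase uggt-1, which marks misfolded glycoproteins for another round of folding, rose by 1.66 (SE 0.37, adjusted p = 0.0478). Its other probe sets had changes of 0.91 and 1.42 that were not called, and its call was lost under at least 1 alternative (adjusted p up to 0.19). Calreticulin's membrane-bound relative cnx-1, calnexin, was at 0.74 (adjusted p = 0.682), a value looked up after the list's counts were known.

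ER-associated degradation, which returns misfolded proteins to the cytosol for the proteasome, had 4 of 18 genes higher and none lower, a median change of 0.75 and 16 values above 0. The signal of cup-2, a derlin homologue of the membrane channel, was 5.99, 6.06 and 5.50 with vehicle and 8.16, 8.0 and 7.99 with tunicamycin. All treated arrays were above all vehicle arrays, and the rise was 2.20 (SE 0.34, adjusted p = 0.00449). The CDC-48 cofactor ubxn-4 rose by 1.88 (SE 0.35, adjusted p = 0.0192), the HRD1 ubiquitin ligase homologue sel-11 by 1.80 (SE 0.35, adjusted p = 0.0209) and its partner sel-1 by 1.61 (SE 0.36, adjusted p = 0.0499). None of these 4 calls held under every alternative, with highest adjusted p-values from 0.0583 for cup-2 to 0.282 for sel-1, and without the arrays numbered 2 the count was 0 of 18, with a median of 0.68. The proteasome itself had 0 of 32 genes called and a median of 0.14. Its member with the smallest p, rpn-12, was at 0.81 (adjusted p = 0.615).

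Of the sensors and transcription factors of the unfolded protein response, 1 of 10 rose: let-607, a membrane-bound transcription factor of the CREB3 family. Its signal was 8.06, 7.43 and 7.93 with vehicle and 9.99, 9.76 and 9.76 with tunicamycin. The groups were separate by more than their spread, and the rise was 2.03 (SE 0.28, adjusted p = 0.00156), which was called under all 22 alternatives. A second let-607 probe set had a change of 1.44 (adjusted p = 0.13). The signal of xbp-1 was 11.24, 10.64 and 11.24 with vehicle and 12.09, 11.81 and 11.81 with tunicamycin. Treated arrays were again all higher, but the change of 0.87 was not called (adjusted p = 0.133). The changes of ire-1, atf-6 and pek-1 were 1.34 (adjusted p = 0.374), 0.64 (0.897) and 0.26 (0.951). The list's median was 0.26.

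Genes for entry into the ER also rose. In the list of translocation, signal peptidase and signal recognition genes, 5 of 15 were called, none lower, all 15 changes were above 0 and the median was 1.18. Signal peptidase, the complex that cuts signal peptides from arriving proteins, had 4 called subunits. The signal of spcs-1 was 6.77, 6.20 and 6.68 with vehicle and 9.38, 8.67 and 8.60 with tunicamycin. The vehicle arrays stayed more than a unit below every treated array, and the rise was 2.33 (SE 0.34, adjusted p = 0.00243). The catalytic subunit sec-11 rose by 2.32 (SE 0.42, adjusted p = 0.0133), spcs-2 by 2.09 (SE 0.43, adjusted p = 0.0322) and spcs-3 by 1.57 (SE 0.30, adjusted p = 0.0209). The fifth called gene, imp-2, a signal peptide peptidase, rose by 2.42 (SE 0.43, adjusted p = 0.0118). A second imp-2 probe set had a change of 1.48 that was not called (adjusted p = 0.0781). Translocon-associated and import genes had positive changes that were not called, from 0.68 for trap-1 to 1.62 for sec-62, both chosen after their values were seen. Only the call of spcs-1 held under every alternative, and without the arrays numbered 2 the count was 1 of 15, with highest adjusted p-values for the others from 0.0798 for sec-11 to 0.156 for spcs-2.

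Genes of export from the ER rose in part. Of 19 genes of the COPII coat, cargo receptors and retrieval receptors, 5 rose, none fell and all 19 changes were above 0, with a median of 1.25. The signal of sec-23, a subunit of the inner COPII coat, was 5.74, 6.19 and 6.74 with vehicle and 9.05, 8.0 and 8.59 with tunicamycin. Groups did not overlap, although array 2 was the lowest treated array, and the rise was 2.33 (SE 0.36, adjusted p = 0.0049). Another probe set of sec-23 had an uncalled change of 2.03 (adjusted p = 0.108). The cargo lectin gene ile-1 rose by 2.12 (SE 0.40, adjusted p = 0.0193), tfg-1, which organises ER exit sites, by 1.95 (SE 0.40, adjusted p = 0.0297), the KDEL receptor erd-2.2, which returns chaperones to the ER, by 1.67 (SE 0.33, adjusted p = 0.0238), and the p24 cargo receptor tmed-1 by 1.62 (SE 0.33, adjusted p = 0.0309). Of these 5 only sec-23 was called under every alternative; the highest adjusted p-values of the rest ran from 0.0922 for ile-1 to 0.263 for tfg-1, and without the arrays numbered 2 the count was 2 of 19. Outside the lists, and chosen after their values were seen, the vesicle SNARE gene sec-22 rose by 1.84 (SE 0.28, adjusted p = 0.00447) and atln-1, an atlastin that fuses ER membranes, by 1.36 (SE 0.30, adjusted p = 0.0442); without the arrays numbered 2 their adjusted p-values were 0.0258 and 0.0652.

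**Figure D2:**
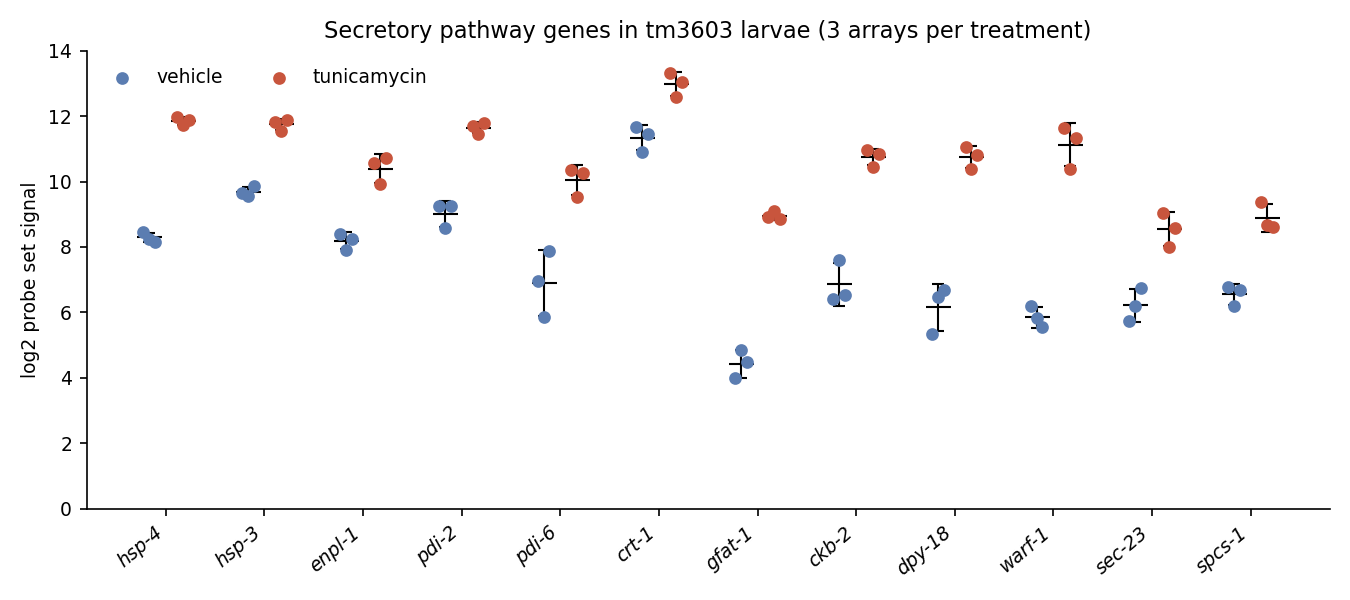
Log2 probe set signal (vertical axis) of 12 genes that rose in tm3603 larvae, with 3 vehicle arrays and 3 tunicamycin arrays as points and the mean with SD as lines. In each gene the treated points lie above the vehicle points, by 1.64 on average for crt-1 and by 5.27 for warf-1.

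The COPI coat and Golgi list had 2 of 27 genes higher, none lower, a median of 0.78 and 24 values above 0. One of them was the ARF-family small GTPase gene warf-1, with 6.19, 5.83 and 5.55 with vehicle and 11.65, 10.38 and 11.33 with tunicamycin. No vehicle array came within 4 units of a treated one, and the rise of 5.27 (SE 0.41, adjusted p = 3.08e-05), or 38.5-fold, was the next to largest of all. The coat subunit copa-1 rose by 2.08 (SE 0.42, adjusted p = 0.0257), with a second probe set at 1.80 (adjusted p = 0.0322), and lost its call under at least 1 alternative (adjusted p up to 0.13). In the hexosamine and N-glycosylation list 1 of 21 genes rose and none fell, with a median of 0.44. That gene was gfat-1, which encodes the first enzyme of hexosamine synthesis and so feeds glycosylation with its sugar donor, at 3.99, 4.84 and 4.48 with vehicle and 8.92, 9.09 and 8.85 with tunicamycin. The treated arrays differed from each other by less than the vehicle arrays did and lay far above them, and the rise was 4.52 (SE 0.53, adjusted p = 0.000441), or 22.9-fold. Tunicamycin's own target enzyme corresponds in the worm to algn-7, which was at 1.03 (adjusted p = 0.45), a value looked up for that role.

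Lipid genes changed singly. The choline kinase gene ckb-2, for the first step of phosphatidylcholine synthesis from choline, stood at 6.41, 7.61 and 6.55 with vehicle and 10.95, 10.46 and 10.84 with tunicamycin. Every treated array exceeded every vehicle array, and the rise was 3.89 (SE 0.34, adjusted p = 3.72e-05), or 14.9-fold. A further choline kinase gene, ckb-4, rose by 1.82 (SE 0.39, adjusted p = 0.0404), and its call was lost under at least 1 alternative (adjusted p up to 0.266). No other gene of the 28 in the phospholipid and fatty acid synthesis list was called, 21 of the 28 changes were below 0, and the median was -0.32. The lowest was sams-1, the S-adenosylmethionine synthetase used for methylation of phospholipids, at -1.44 (adjusted p = 0.0542), named after its value was seen. Chosen in the same way, dsc-4, the homologue of the microsomal transfer protein that loads lipoproteins, rose by 2.01 (SE 0.44, adjusted p = 0.042), and fitm-2, a homologue of the ER membrane protein FIT2 of lipid droplets, by 1.76 (SE 0.35, adjusted p = 0.0235); without the arrays numbered 2 their adjusted p-values were 0.192 and 0.105. The lipase-related gene lips-11 was at 2.07, 2.10 and 2.21 with vehicle and 6.26, 6.31 and 6.41 with tunicamycin. All its vehicle arrays lay under the background limit, so the rise (adjusted p = 5.1e-05) was at least 8.5-fold, with each dim array set no lower than the 95th percentile of its own background controls.

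Further genes, among them enzymes and ion carriers, rose as single genes within mostly uncalled lists. Of 8 collagen-modifying enzyme genes, 2 rose, pdi-2 above and dpy-18, the alpha subunit of the same prolyl 4-hydroxylase. The signal of dpy-18 was 5.33, 6.47 and 6.68 with vehicle and 11.05, 10.40 and 10.82 with tunicamycin. The vehicle arrays were spread over more than a unit and still far below the treated ones, and the rise was 4.60 (SE 0.39, adjusted p = 3.34e-05), or 24.2-fold. Its other probe sets rose by 3.75 and 4.99. Its relative phy-2, an alternative alpha subunit looked up after the dpy-18 value was seen, was at 1.29 (adjusted p = 0.374). Among 7 genes of calcium handling, crt-1 above and calu-1, a calcium-binding calumenin of the secretory pathway, rose, the latter by 2.36 (SE 0.30, adjusted p = 0.00082). Chosen after its value was seen, nucb-1, the homologue of the calcium-binding Golgi protein nucleobindin, rose by 2.16 (SE 0.31, adjusted p = 0.0021). One of 16 zinc transporter genes rose, zipt-7.1, with 3.27, 4.07 and 4.40 with vehicle and 8.16, 7.61 and 7.87 with tunicamycin. Groups were separate by more than 2 units, and the rise was 3.97 (SE 0.42, adjusted p = 0.000152). The gene slc-30A5, which belongs to another zinc carrier family and was not in that list, rose by 2.92 (SE 0.65, adjusted p = 0.0499), while its other probe sets were at 1.64 and 0.37 (adjusted p = 0.114 and 0.917) and its call was lost under at least 1 alternative (adjusted p up to 0.214). The single called members of the serpin, immune effector and abu and pqn lists in the upward direction were srp-7, a protease inhibitor, by 2.75 (adjusted p = 0.000119), fipr-24 by 3.06 (adjusted p = 0.00082) and pqn-96 by 1.63 (adjusted p = 0.0368), and the pqn-96 call was lost under at least 1 alternative (adjusted p up to 0.175). A second pqn-96 probe set was at 0.77 and was not called (adjusted p = 0.52). The fipr-24 probe set is of a kind that the array's design marks as matching other transcripts in part, so which gene rose is uncertain.

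The largest rise of all genes was that of Y41C4A.32, for which no role is given here, with 5.55, 6.29 and 5.18 with vehicle and 11.73, 11.21 and 11.54 with tunicamycin. The treated arrays lay close together and no vehicle array came near them; the rise was 5.82 (SE 0.30, adjusted p = 2.43e-07), or 56.6-fold. Y54G2A.18 rose by 4.14 (SE 0.37, adjusted p = 5.1e-05), and its second probe set by 2.80 from a vehicle signal of 2.04, under the background limit. Further genes among the 25 largest rises were irld-6 at 3.35, ZK1290.10 at 3.31, F41B4.3 at 3.12, rmd-1 at 2.92, T06D8.9 at 2.88, txdc-12.1, an ER thioredoxin-domain protein, at 2.67 and col-89, a cuticle collagen, at 2.52. Of these irld-6, F41B4.3, T06D8.9 and txdc-12.1 were called under all 22 alternatives, while the calls of ZK1290.10, rmd-1 and col-89 were lost under at least 1 (highest adjusted p-values from 0.095 for col-89 to 0.112 for ZK1290.10). The gene mtp-18, whose human homologue acts in mitochondrial fission, was at 5.31, 4.76 and 5.28 with vehicle and 8.08, 8.41 and 8.20 with tunicamycin. Its groups did not overlap, and it rose by 3.11 (SE 0.47, adjusted p = 0.00379). In a family of 5 fission genes put together after that value was seen, fis-2, a homologue of the fission adaptor FIS1, also rose, by 1.93 (SE 0.37, adjusted p = 0.0205), whereas drp-1, the fission GTPase, was at 0.37 (adjusted p = 0.916) and mff-1 and mff-2 at -0.48 and -0.17. Without the arrays numbered 2 the adjusted p of fis-2 was 0.0159.

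Among probe sets with 1 gene, the largest fall was that of an intestinal gene. The gene ifc-1, an intermediate filament of the intestine's inner lining, stood at 8.42, 8.34 and 8.44 with vehicle and 6.06, 4.96 and 5.06 with tunicamycin. The vehicle arrays were nearly equal and all treated arrays lay below them, and it fell by 3.04 (SE 0.34, adjusted p = 0.000237), or 8.23-fold. It was the 1 called gene of 21 intestine markers, of which 16 had changes below 0, as had 51.9% of all genes, with a median of -0.36. In 8 of the 21 the treated arrays all lay below the vehicle arrays, as in 9.15% of all genes. The defining intestine markers remained measured, with act-5 at 7.88 with vehicle and 6.82 with tunicamycin, ges-1 at 6.21 and 5.11, ifb-2 at 9.73 and 9.08 and elt-2 at 5.48 and 5.55, none of them called. Their part in the falls described here was not tested.

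Among 33 lysosomal protease and lipase genes 3 fell and none rose, with a median of -0.38 and 23 values below 0. Over all genes 0.443% were called lower and 51.9% had changes below 0. The signal of asp-13, an aspartyl protease gene, was 8.47, 8.92 and 8.99 with vehicle and 6.47, 5.74 and 5.93 with tunicamycin. The groups were separate by about 2 units, and it fell by 2.74 (SE 0.36, adjusted p = 0.000971). The cathepsin B homologue cpr-4 was at 8.55, 8.09 and 8.19 with vehicle and 5.50, 5.11 and 6.56 with tunicamycin. Array 3 was the highest treated array but stayed under all vehicle arrays, and it fell by 2.55 (SE 0.48, adjusted p = 0.0177). Another aspartyl protease gene, asp-8, fell by 1.75 (SE 0.37, adjusted p = 0.0346). The calls of cpr-4 and asp-8 were lost under at least 1 alternative (adjusted p up to 0.115 and 0.178), and without the arrays numbered 2 the count was 1 of 33. The proton pump that acidifies lysosomes had 0 of 18 subunits called, 16 below 0 and a median of -0.55; vha-15, with -0.90 (adjusted p = 0.182), and vha-9, with -0.61 (adjusted p = 0.223), were picked as examples after their values were seen. The DNase II homologue nuc-1 of the cell death list was at -1.56 (adjusted p = 0.0911), and no gene of that list's 16 was called.

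Both measured members of the pud family, named for proteins that are raised in daf-2 mutants, fell. The signal of pud-4 was 9.32, 8.41 and 9.01 with vehicle and 6.63, 6.23 and 5.70 with tunicamycin, and that of pud-3 was 6.03, 7.12 and 5.61 with vehicle and 4.71, 3.24 and 2.44 with tunicamycin. For both genes the groups were apart, but the pud-3 arrays were widely spread, and its treated arrays 2 and 3 lay under the background limit. The gene pud-4 fell by 2.73 (SE 0.36, adjusted p = 0.000971) and pud-3 fell by 2.79 (SE 0.55, adjusted p = 0.0225), and the latter call was lost under at least 1 alternative (adjusted p up to 0.27). The aldehyde dehydrogenase gene alh-5 was at 8.22, 8.36 and 8.07 with vehicle and 5.84, 5.76 and 5.85 with tunicamycin. Its arrays were nearly equal within each treatment, and it fell by 2.40 (SE 0.28, adjusted p = 0.000446). In a family of 12 aldehyde dehydrogenase genes put together after that value was seen, alh-3 also fell, by 1.75 (SE 0.37, adjusted p = 0.0373), the other 10 were not called, and the median was -0.36. In the same way 8 fatty acid-binding protein genes were looked up, of which lbp-1 fell by 1.80 (SE 0.39, adjusted p = 0.0412) and lbp-6 by 1.14 (SE 0.23, adjusted p = 0.0289), while lbp-9, not called, was at 0.94 (adjusted p = 0.291). Without the arrays numbered 2 the adjusted p-values of alh-3, lbp-1 and lbp-6 were 0.158, 0.095 and 0.156.

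Other single genes fell without their lists. The asparagine synthetase gene asns-2 fell by 2.22 (SE 0.48, adjusted p = 0.0412), the 1 call among 13 genes of the integrated stress response and amino acid synthesis. The C-type lectin clec-52 fell by 1.85 (SE 0.36, adjusted p = 0.0219), the 1 lower call among 118 immune effectors. Their median was -0.22 with 80 below 0, where 51.9% of all genes were. The nuclear hormone receptor gene nhr-142 fell by 1.75 (SE 0.38, adjusted p = 0.0406), 1 of 154, and the transthyretin-related gene ttr-44 by 1.04 (SE 0.22, adjusted p = 0.0412), 1 of 39. Over all genes 0.443% were called lower, so 1 call in the lists of 118 and 154 genes is near that share. The short-chain dehydrogenase gene dhs-2 fell by 2.05 (SE 0.42, adjusted p = 0.0289). All 5 calls were lost under at least 1 alternative, with highest adjusted p-values from 0.126 for clec-52 to 0.297 for asns-2. Among the 25 largest falls the genes Y16B4A.2, T16G1.6, F15E6.3 and T22F3.11 had changes of -2.72, -2.71, -2.18 and -2.12, and a second T22F3.11 probe set fell by 2.77. The mean treated signals of drd-1, ZK512.7 and exc-12 lay under the background limit, with treated array 2 of drd-1 (3.48) and array 3 of ZK512.7 (3.60) above it, so their falls were at least 4.05-fold, 4.03-fold and 3.32-fold (adjusted p = 0.0241, 0.0119 and 0.0257). A second ZK512.7 probe set had a change of -1.29 that was not called (adjusted p = 0.233). The calls of T16G1.6, T22F3.11, drd-1, ZK512.7 and exc-12 were lost under at least 1 alternative, with highest adjusted p-values from 0.0665 for T16G1.6 to 0.16 for ZK512.7.

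**Figure D3:**
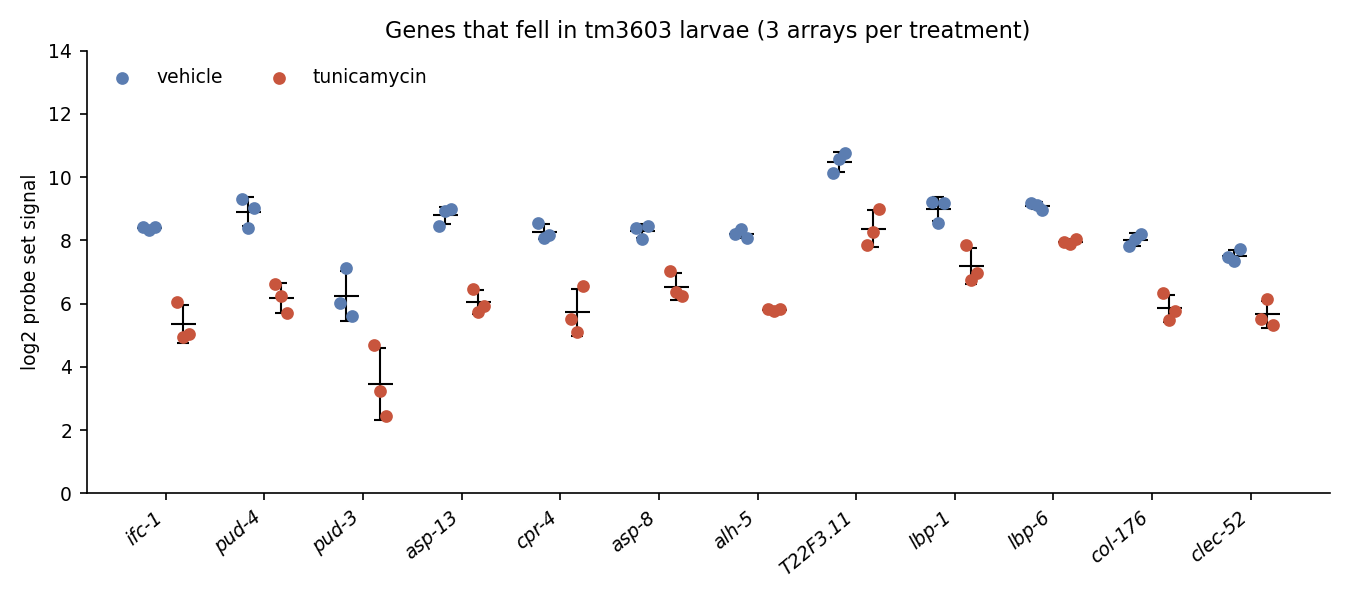
Log2 probe set signal (vertical axis) of 12 genes that fell in tm3603 larvae, with 3 vehicle arrays and 3 tunicamycin arrays as points and the mean with SD as lines. Treated points lie below vehicle points in each gene, closely grouped for alh-5 and lbp-6 and widely spread for pud-3, whose lowest treated array is at 2.44.

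Cuticle collagens, the structural proteins that the epidermis secretes, had 6 of 128 genes lower and 1 higher, where 0.443% and 0.692% of all genes were. Of the 128 changes 113 were below 0, as were 51.9% of all genes, with a median of -0.49, and in 43 genes all treated arrays lay below all vehicle arrays, as in 9.15% of all genes. The signal of col-176 was 7.82, 8.05 and 8.22 with vehicle and 6.33, 5.47 and 5.76 with tunicamycin. Its treated arrays all lay below the vehicle arrays, and it fell by 2.18 (SE 0.36, adjusted p = 0.00645). Changes of col-80, col-157 and col-125 were -2.10 (SE 0.42, adjusted p = 0.0257), -1.09 (SE 0.22, adjusted p = 0.0309) and -0.88 (SE 0.14, adjusted p = 0.0055), and those of col-160 and col-43, outside the naming rule, were -1.19 and -0.92. A second col-157 probe set was at -1.17 and was not called (adjusted p = 0.338). The 1 rise was that of col-89. Collagen genes resemble each other in sequence, and 4 of the 6 lower probe sets are of a kind that the array's design marks as matching other transcripts in part, so which gene fell is uncertain. The calls of col-176, col-80, col-157 and col-125 were each lost under at least 1 alternative (highest adjusted p-values from 0.0542 for col-176 to 0.189 for col-125), and without the arrays numbered 2 the counts were 1 lower and 0 higher. Hypodermis markers had 0 of 20 called, 18 below 0 and a median of -0.55, with rol-6 at 7.57 with vehicle and 6.63 with tunicamycin and dpy-7 at 5.98 and 5.40; their part in the collagen values was not tested. Hedgehog-related and patched-related genes of the epidermis had 0 of 51 called and a median of -0.27. Without the arrays numbered 2 the count was 2 lower, 1 of them wrt-10 at -2.55 (adjusted p = 0.0187), and in wild type 1 was called lower.

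Several other stress programmes had no called gene. Over all genes 0.692% were called higher and 0.443% lower, so 0 calls in lists of this size is near those shares. The cytosolic heat shock list had 0 of 15 genes called and a median of 0.02, with its member of smallest p, hsf-1, at 1.47 (adjusted p = 0.251). The mitochondrial unfolded protein response had 0 of 13 and a median of 0.04. In that list the protease gene lonp-1 was at 1.21 (adjusted p = 0.157), while a second lonp-1 probe set rose by 1.78 (adjusted p = 0.0382). Glutathione transferases and oxidative stress genes had 0 of 52 and a median of -0.17, cytochrome P450 and glucuronosyltransferase genes 0 of 85 and -0.30, beta-oxidation genes 0 of 35 and -0.27, and autophagy genes 0 of 22 and 0.22. Cytosolic and mitochondrial tRNA synthetases had 0 of 32 and a median of 0.28, ribosomal proteins 0 of 64 and -0.03, respiratory chain genes 0 of 40 and -0.25, and histones 0 of 33 and -0.39. Changes were below 0 in 66 of the 85 P450 and glucuronosyltransferase genes, 33 of the 40 respiratory chain genes and 29 of the 33 histones. Over all genes 51.9% were below 0. The tRNA synthetases went the other way, with 24 of 32 above 0, against 48.1% of all genes. Genes of insulin signalling and of starved L1 arrest had 0 of 20 called, with a median of 0 after rounding to 2 decimals. Nerve and muscle lists likewise held no called gene: neurons 0 of 21 with a median of -0.02, dopaminergic neurons 0 of 6 with -0.15, neuropeptides 0 of 71 with -0.09, body wall muscle 0 of 16 with 0.03 and pharynx 0 of 14 with -0.06. Germline and adult markers had 0 of 42 and a median of 0.15. An uncalled gene is not shown to be unchanged, since the 3 arrays per group limit the precision.

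**Figure D4:**
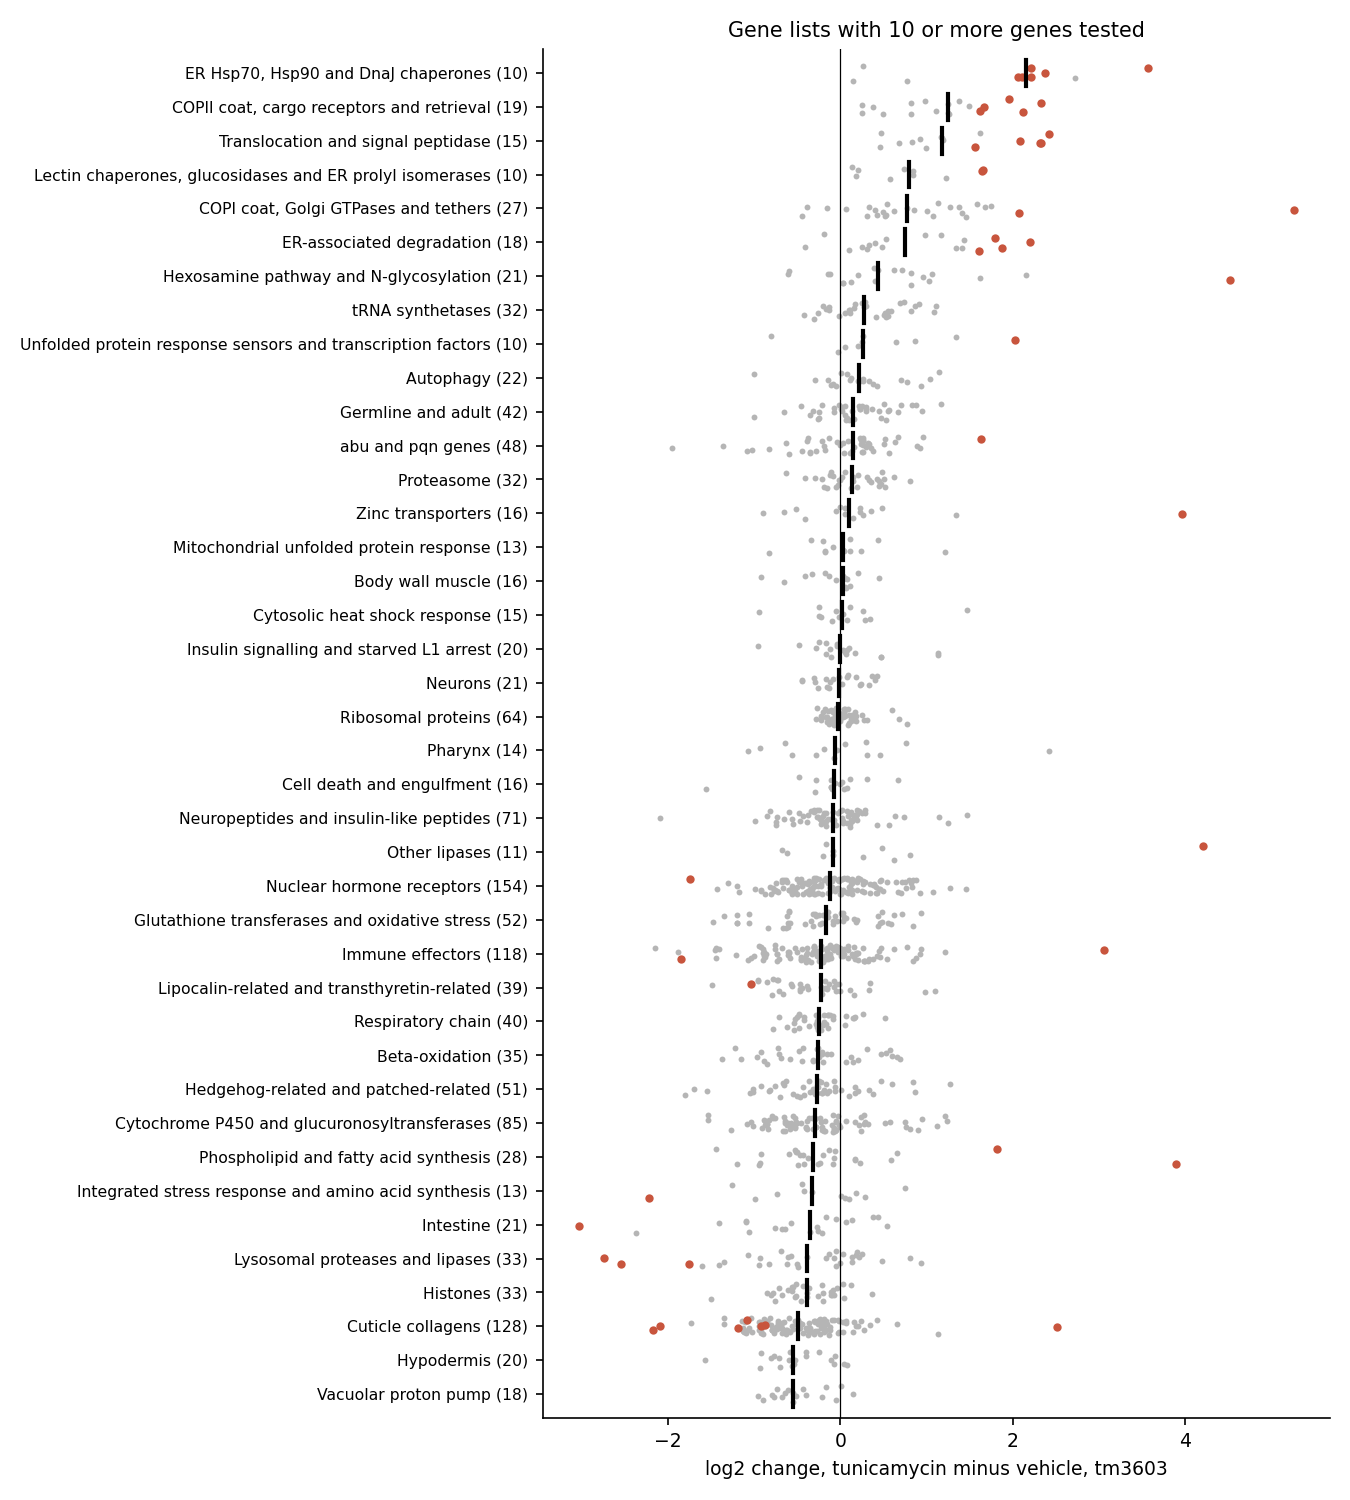
Log2 change with tunicamycin in tm3603 larvae (horizontal axis) for each gene of the lists with 10 or more genes tested, with called genes in red, others in grey and the list's median as a black bar. The medians run from 2.16 for the ER chaperones of the Hsp70, Hsp90 and DnaJ families to -0.55 for the proton pump and the hypodermis, and each of the 6 topmost lists holds at least 2 called rises and no called fall.

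The same treatment in wild type, on separate arrays, gave 41 genes higher (0.378%) and 2 lower (0.0184%). Of the 75 genes that rose in mutants, 74 changed upward in wild type, where 48% of all genes did, with a median of 1.79, and 36 were called there. In 65 of the 75 the wild-type arrays with tunicamycin all lay above those with vehicle, as in 5.74% of all genes. The exception was rmd-1, a regulator of microtubule dynamics, at 2.92 in mutants and -0.33 in wild type. Of the 48 genes that fell in mutants, 46 had changes below 0 in wild type, as had 52% of all genes, with a median of -0.61, and 1, drd-1, was called there. The exceptions were dhs-2 at 0.04 and F40E3.5 at 0.01 in wild type. In 21 of the 48 the treated wild-type arrays all lay below, as in 5.58% of all genes. Wild-type changes were nearer 0 or opposite for 65 of the 75 and 47 of the 48, but these genes were selected on the mutant values, which favours the mutant side. The test of the difference itself, response in mutants minus response in wild type, called 0 of the 10844 genes, and by limma 679 of 14709 probe sets (4.62%) had an unadjusted p under 0.05. A single probe set (0.0068%) passed, 1 of 3 for rab-6.1, and the other 2 did not.

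The medians of the ER lists are set side by side here, with no test between them. The chaperone list had medians of 2.16 in mutants and 2.06 in wild type, the disulfide isomerases 2.23 and 2.33, and hsp-4 rose by 3.57 and 3.22. Lectin chaperones had medians of 0.79 and 0.49, and their member uggt-1 was at 1.66 and 0.64, a difference whose adjusted p was 0.995. Translocation genes had 1.18 and 0.77, ER-associated degradation 0.75 and 0.43, and the sensors 0.26 and 0.68. The gene Y41C4A.32 changed by 5.82 in mutants and 3.16 in wild type, a difference of 2.66 (SE 0.42) whose adjusted p of 0.0974 did not pass. For warf-1 the changes were 5.27 and 3.06, a difference of 2.21 (SE 0.58, adjusted p = 0.995). For alh-5 they were -2.40 and -0.14, with mean signals of 8.22 and 5.81 in mutants and 7.74 and 7.61 in wild type; the difference of -2.27 had an adjusted p of 0.233. The T22F3.11 changes were -2.12 in mutants and -0.44 in wild type (adjusted p of the difference 0.995). On its second probe set they were -2.77 and -0.30 (adjusted p of the difference 0.0974). With vehicle, 0 of the 123 genes differed between the genotypes past the threshold.

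**Figure D5:**
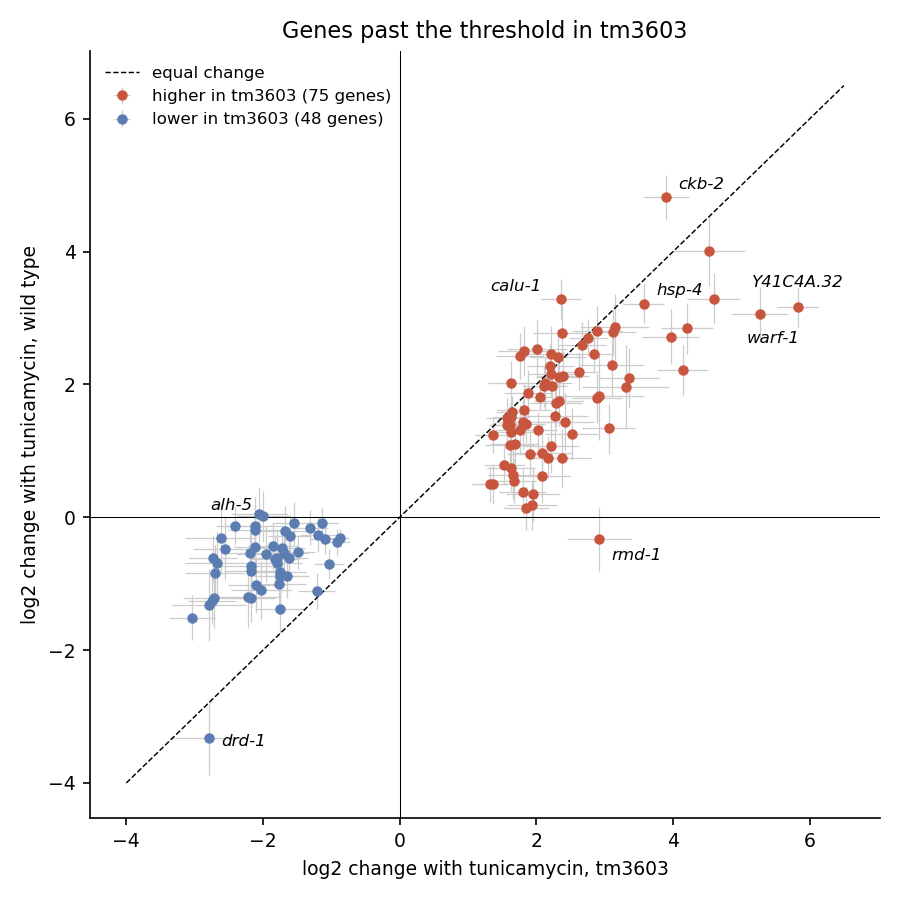
Log2 change with tunicamycin in wild type (vertical axis) against that in tm3603 larvae (horizontal axis) for the 75 genes that rose and the 48 that fell in the mutants, with limma's SE as grey bars and equal change as a dashed line. Of the 75 risen genes 65 lie below the line and others, such as ckb-2 and calu-1, above it, with medians of 2.21 and 1.79, while fallen genes other than drd-1 lie closer to 0 in wild type, with medians of -1.91 and -0.61, and the genes were chosen on the mutant axis.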

How the data were processed

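Per the labels' protocols, 6 ug of whole-body RNA per sample was biotin-labelled for Affymetrix arrays of C. elegans, which have 1 colour. The deposited table holds signals on a log2 scale, read from the range of the values; MAS5 is named per the submitters' processing notes without a role, and how the authors made and scaled the log2 values is not given in the sources used here. Array medians were nearly equal, so values were used as deposited, with the 77 Affymetrix control probe sets left out. A probe set was tested if it exceeded the 40th percentile of its array on at least 3 arrays (14709 of 22548). Scaling between arrays would hide a shift shared by most transcripts, and compression of low signals would shrink changes of dim probe sets.

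Names came from the platform annotation, with 13649 of 13689 single-gene probe sets matched to the RefSeq gene table of assembly WBcel235 and 0 symbols changed. Probe sets with several genes (481) or none (539) named no gene. For each of 10844 genes the tested probe set with the highest mean over the 12 arrays was used, a choice for 2332 genes. The values name no genome build, so no coordinates are given.

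A model of 4 group means over the 12 arrays was fitted with limma 3.58.1 in R 4.3.3 (lmFit, eBayes with a mean-variance trend, 8 residual and 5.93 prior degrees of freedom), two-sided, with Benjamini-Hochberg adjustment over all tested probe sets and a threshold of 0.05. The fit was checked on simulated arrays with known changes. The members, the 46 gene lists and the tests were chosen with earlier results of these data known, and 15 list members matched no gene. Named genes are the 25 largest rises and falls among called single-gene probe sets whose groups did not overlap, up to 5 called members of each list or otherwise the member with the smallest p, the unfolded protein response sensors, and the leading genes of the difference between genotypes, and the text gives part of these. Members given as a list's other or uncalled genes, sec-22, atln-1, nucb-1, dsc-4, fitm-2, dnj-7 and the fission, aldehyde dehydrogenase and fatty acid-binding families were chosen after their values were seen.

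Replicate numbers were not treated as pairs, since not every same-numbered pair of arrays deviated together. Alternatives covered normalization (quantile, or centring on medians), the filter (none, or the 60th percentile), the variance prior (robust, or no trend), an offset of 5.06 added to antilogged signals, a fit of only the 6 mutant arrays, the replicate block, a call by unadjusted p and 2-fold change, the mean of a gene's probe sets in lists, and the removal of single arrays or of the 4 numbered 2.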

Additional observations from a re-analysis of the deposited data

Results flagged for a closer look

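One probe set for rab-6.1, a gene of the Rab family of small GTPases of the Golgi, responded in opposite directions in the genotypes by the test of the difference itself. In mutants its signal was 4.32 ± 0.21 with vehicle and 6.06 ± 0.05 with tunicamycin (SD, n = 3 each), a change of 1.75 (SE 0.33, limma adjusted p = 0.0177). In wild type it was 5.98 ± 0.37 and 4.0 ± 0.09, a change of -1.98 (SE 0.33, adjusted p = 0.012). The response in mutants minus that in wild type was 3.73 (SE 0.46, adjusted p = 0.0177). The probe set used for the gene and a further one had differences of -0.33 and 0.15, with adjusted p-values of 0.995 and 0.998, so the 3 probe sets of rab-6.1 disagree. Over the alternatives the adjusted p of the difference ranged from 0.005 without the mean-variance trend to 0.616 without the 4 arrays numbered 2, where the difference was 3.54. With single arrays left out, the call held without wild-type vehicle array 1, wild-type tunicamycin array 1 or mutant vehicle array 2. It was lost without any other single array, with adjusted p-values up to 0.0988.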

How the results depend on the processing

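Under quantile normalization, median centring, both other filters, the offset, both variance priors and the replicate block, the counts of probe sets and genes called for tunicamycin in mutants stayed within 1.5 times the values given. Fitting only the 6 mutant arrays gave 72 genes higher and 30 lower, and 90 of the 123 genes kept their call. Without the 4 arrays numbered 2 there were 76 probe sets, 42 genes higher and 17 lower, and 0 probe sets for the difference between genotypes. An unadjusted p with a 2-fold change gave 829 probe sets, with 325 genes higher and 321 lower. Risen genes made up 61% of the calls, 70.6% with only the mutant arrays, 71.2% without the arrays numbered 2, 50.3% with the unadjusted p, and 61.5% and 62.8% under the other scalings.

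Leaving out each of the 12 arrays gave 79 to 178 probe sets, 44 to 86 genes higher, 14 to 54 lower and 0 to 2 probe sets for the difference. Without mutant vehicle arrays 1, 2 and 3 the genes higher and lower numbered 44 and 14, 49 and 25, and 54 and 22, and without mutant tunicamycin arrays 1, 2 and 3 they numbered 49 and 27, 46 and 16, and 46 and 18. These fits hold fewer arrays. The replicate block gave 189 probe sets, 85 genes higher, 58 lower and 2 probe sets for the difference, against 158, 75, 48 and 1 without it. Same-numbered arrays had correlations of deviations from the group means of 0.000216, 0.100 and -0.00948 in mutants and 0.0327, 0.135 and 0.00879 in wild type for numbers 1, 2 and 3. The mutant value of number 2, 0.100, exceeded the highest correlation between mutant arrays of different numbers, 0.0727. This is a hint of something shared by the arrays numbered 2 that comes from the data, not the design. For the wild-type value of 0.135 no such range between different numbers was computed. Of the 80 named genes that were called, 34 stayed past the threshold under all 22 alternatives, 46 lost it under at least 1, and 0 changed sign. Of 29 named genes that were not called, 4 (hlh-6, xbp-1, nuc-1 and wrt-10) passed under at least 1. List medians moved by more than their spread in 9 of 1058 combinations of list and setting. The table has no detection calls, and signals near the background controls limit the dim genes.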

Other observations

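Further genes outside the lists rose in mutants and were picked out after their values were seen. The gene mpdu-1, a homologue of a protein needed to use mannose linked to dolichol in glycan assembly, rose by 1.53 (SE 0.30, limma adjusted p = 0.0225). The glycosyl hydrolase gene aagr-4 rose by 2.29 (SE 0.37, adjusted p = 0.00645), and abce-1, the homologue of a ribosome recycling factor, rose by 2.21 (SE 0.42, adjusted p = 0.0192), while a second abce-1 probe set was at 0.58 and was not called. Without the 4 arrays numbered 2 the adjusted p-values of mpdu-1, aagr-4 and abce-1 were 0.216, 0.0397 and 0.204.

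Of the 158 probe sets called in mutants, 10 list several genes and 3 list none, and no gene is named from them. Of the 10, 2 were higher and 8 lower. The largest falls of all were on such probe sets, with changes of -4.35 (mean signals of 10.4 with vehicle and 6.01 with tunicamycin), -3.83 and -3.66 (adjusted p = 3.34e-05, 0.000438 and 0.000152). In wild type these 3 had changes of -2.03, -1.60 and -1.98. All 3 were still called in mutants without the arrays numbered 2 (adjusted p = 0.000653, 0.00627 and 0.000569).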
